A study of Mus musculus with 14 samples.

Results

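The genes described here are those of the mitochondrial respiratory chain and ATP synthase, from both the nuclear and the mitochondrial genome, in mouse CD4 T cells. They were taken by name: mouse symbols that start with Nduf, Uqcr, Cox4 to Cox8 or Atp5, together with Cyc1, Cycs, Sdha, Sdhb, Sdhc, Sdhd and the 13 protein genes of the mitochondrial genome, less pseudogenes and genes that stayed under 1 CPM (counts scaled to a common library size, as parts per 1e6) in every library. This left 96 genes of the 27179 in the count table, of which 88 are nuclear and 8 are mitochondrial. The series compared helper T cell fates under differing TGF-β signals in bulk RNA-seq of C57BL/6 CD4 T cells, grown for 3.5 days on plate-bound antibodies against CD3 and CD28. All 3 groups shared that activation. Th1 (5 libraries) received the Th1 condition, TfhA (4 libraries) a Tfh condition with an antibody against TGF-β, and Tfh5 (5 libraries) a Tfh condition with 5 ng/ml TGF-β. The labels do not list the further cytokines of each condition.

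The respiratory chain passes electrons from NADH and succinate through complexes I to IV to oxygen and uses the energy to pump protons across the inner mitochondrial membrane. ATP synthase, often counted as complex V, lets the protons flow back and makes ATP. Most subunits are encoded in the nucleus and imported, while a small set of hydrophobic core subunits is encoded by mitochondrial DNA and translated inside the organelle, so each of complexes I, III, IV and V is built from the products of both genomes. Activated T cells gain mitochondrial mass while they also raise glycolysis.

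The count total of a library ranged from 13390058 to 16108059 for Th1, from 8805921 to 13027721 for TfhA and from 9766313 to 13316633 for Tfh5. The 5 marker genes of CD4 T cells (Cd4, Cd3e, Cd3g, Cd5 and Trac) were all detected, with summed levels of 2873 to 3156 CPM (Th1), 3347 to 4299.8 CPM (TfhA) and 5046 to 5646 CPM (Tfh5). Markers of B cells (4 of 4 with a count) summed to between 0.378 and 1.68 CPM (Th1), 3.93 and 6.65 CPM (TfhA) and 0.408 and 1.70 CPM (Tfh5). The pair of CD8 T cell markers summed to 12.2 to 34.0, 8.81 to 22.4 and 8.26 to 21.1 CPM in the same order. The 3 NK cell markers, of which Ncr1 was at 0, stayed between 1.14 and 3.79 CPM and the 6 myeloid markers, of which Adgre1 was at 0, stayed between 0.68 and 3.36 CPM. The part of these differences in the results below was not tested. The labels give neither the sorting gate nor whether libraries came from separate mice or cultures, so the p-values measure the spread between these libraries only, which may be technical. In bulk RNA, fewer cells of a type and less RNA per cell cannot be told apart. Th1 replicate 1 stood apart: the chi-square of its counts against another Th1 library, per degree of freedom, was 22.9 to 30.6, while other pairs of Th1 libraries gave 4.15 to 9.81. TfhA replicate 5 was the lowest of its group for several members. Counts without Th1 replicate 1 or TfhA replicate 5 are given below, and the closing section gives the ranges with each library left out in turn.

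Tfh5 had the lowest summed level of the nuclear members and the highest of the mitochondrial members. In Tfh5 the 88 nuclear members together made up 10431 ± 688 CPM (SD, n = 5), against 12758 ± 320.1 CPM in TfhA (SD, n = 4) and 13224 ± 545 CPM in Th1 (SD, n = 5). The highest Tfh5 library, at 11573 CPM, lay below the lowest TfhA library, at 12429 CPM. The 8 mitochondrial members together made up 70124 ± 4792 CPM in Tfh5, 49615 ± 13348 CPM in TfhA and 53112 ± 8491 CPM in Th1, and here the lowest Tfh5 library, at 63225 CPM, lay above the highest TfhA library, at 61602 CPM. Counts of the mitochondrial members were 6.74 ± 0.602 times those of the nuclear members in Tfh5, 3.89 ± 1.08 times in TfhA and 4.04 ± 0.765 times in Th1. These sums are dominated by a few abundant genes and carry no test.

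**Figure D1:**
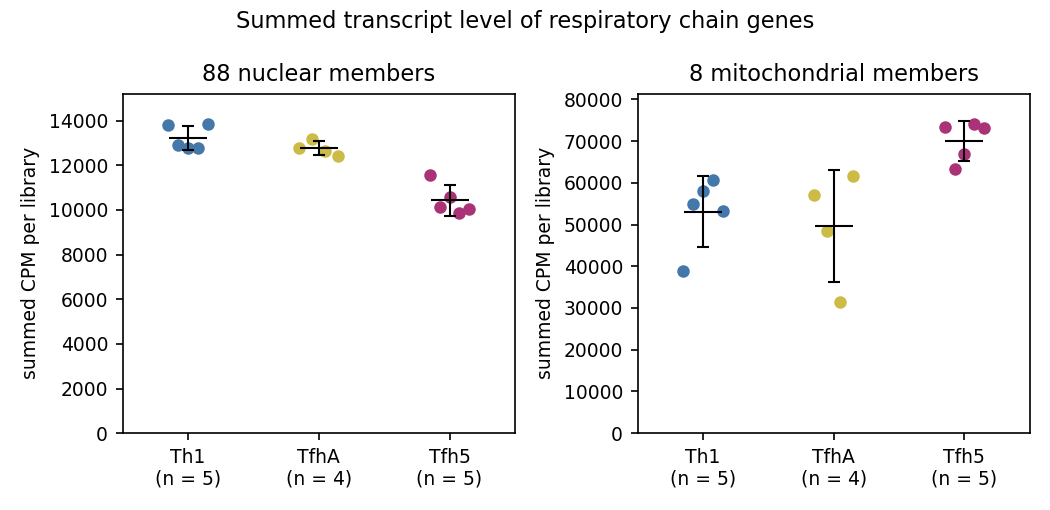
Summed level of the 88 nuclear members (left) and the 8 mitochondrial members (right), in CPM, for each library of Th1, TfhA and Tfh5. Points are libraries, horizontal lines are means and whiskers are 1 SD. The 5 Tfh5 libraries lie below all others on the left, with the highest at 11573 CPM, and above all others on the right, with the lowest at 63225 CPM.

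Gene by gene, 48 of the 96 members were lower and 11 were higher in Tfh5 than in TfhA at an adjusted p under 0.05 (edgeR's quasi-likelihood test, Benjamini-Hochberg adjustment over the 13075 genes tested). This was a comparison in which 57.5% of all genes tested were called, 30.1% lower and 27.4% higher. All 48 lower members were nuclear, and the median log2 fold change was -0.33 over the 88 nuclear members and 0.53 over the 8 mitochondrial members, beside -0.01 over all genes tested. The mitochondrial median includes mt-Nd3, whose counts are not read as its transcript level for the reason given below. It was 0.36 without TfhA replicate 4, the library with the lowest mitochondrial sum. Changes were small: 1 of the 96 members was called at 2-fold or more, beside 3097 of the 13075 genes tested. Without TfhA replicate 5 the counts were 43 lower and 12 higher, and without Th1 replicate 1, which shares in the estimate of the spread, they were 50 lower and 11 higher. With a correction for transcript length, 39 were lower and 17 higher.

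Between TfhA and Th1, which differ in the whole condition and not in TGF-β alone, 18 members were higher and 14 lower in TfhA, where 44.8% of all genes tested were called (23.2% higher, 21.6% lower). The nuclear median was 0.03 and the mitochondrial median -0.06. Between Tfh5 and Th1, 14 members were higher and 41 lower in Tfh5, where 64.6% of all genes were called (31.5% higher, 33.0% lower), with a nuclear median of -0.29 and a mitochondrial median of 0.50. Without TfhA replicate 5 these counts were 17 higher and 13 lower for TfhA against Th1, and 14 higher and 41 lower for Tfh5 against Th1. Without Th1 replicate 1 they were 18 higher and 12 lower for TfhA against Th1, and 13 higher and 44 lower for Tfh5 against Th1. The 3 comparisons share libraries, so their values for a gene are not independent of each other.

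**Figure D2:**
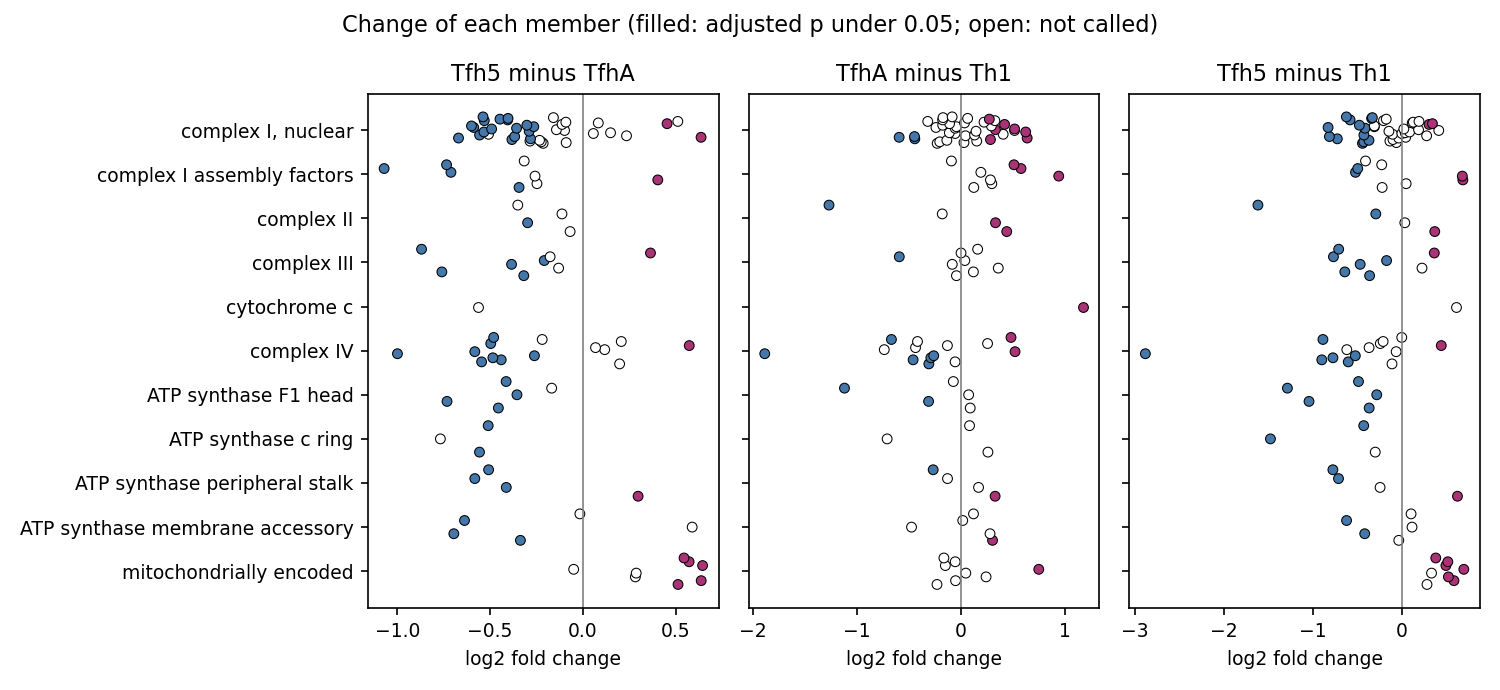
log2 fold change of each of the 96 members in the 3 comparisons, grouped by the part of the chain to which its product belongs. Filled points passed an adjusted p under 0.05 (blue lower, red higher) and open points did not. In Tfh5 minus TfhA the nuclear members lie mainly left of 0, with a median of -0.33, and the mitochondrial members lie mainly right of it, with a median of 0.53.

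Among the nuclear complexes, the summed level of ATP synthase members stood furthest below the other groups in Tfh5. Its 17 members summed to 2921 ± 163 CPM in Tfh5 (SD, n = 5), against 4086 ± 197 CPM in TfhA (n = 4) and 4370.4 ± 234 CPM in Th1 (n = 5). Complex I (36 nuclear members) summed to 3283 ± 220.4 CPM in Tfh5 against 3821 ± 105 CPM in TfhA, complex III (8 members) to 1508 ± 142 against 1674 ± 88.7 CPM, and complex IV (14 members) to 1999 ± 146 against 2352 ± 80.9 CPM. Complex II (4 members) summed to 536 ± 48.7 CPM in Tfh5 and 596 ± 36.8 CPM in TfhA, with libraries that overlapped, while the Tfh5 libraries lay wholly below the TfhA libraries for complexes I, IV and V. No test was made of a difference between complexes.

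In the catalytic head of ATP synthase, where ATP is formed, and the stalk that turns within it, 4 of 5 subunits were lower in Tfh5 than in TfhA and 5 were lower in Tfh5 than in Th1. Of all genes tested, 30.1% and 33.0% were lower in these comparisons. Atp5b encodes the catalytic β subunit and had the highest level per length of transcript of the nuclear ATP synthase members, at 251 CPM per kilobase of merged exons over all libraries (Atp5e had, at 789 per kilobase, when the principal transcript alone set the length). The level of Atp5b was 1489, 1365, 1368, 1314 and 1466 CPM in the Th1 libraries, 1222, 1116, 1226 and 948 CPM in TfhA and 716, 692, 705, 645 and 637 CPM in Tfh5. The 3 groups did not overlap and stood in the order Th1, TfhA, Tfh5. Atp5b was 1.66-fold lower in Tfh5 than in TfhA (log2 fold change -0.73 ± 0.09 (SE), adjusted p = 1.59e-07), and also lower in TfhA than in Th1 (log2 fold change -0.31 ± 0.09 (SE), adjusted p = 0.00673). The α subunit gene Atp5a1, whose product forms the head together with the β subunit, was at 681 ± 42.5, 723 ± 109.8 and 527 ± 59.5 CPM in Th1, TfhA and Tfh5 (SD), a log2 fold change of -0.46 ± 0.103 (SE) between Tfh5 and TfhA with adjusted p = 0.000535. The central stalk genes Atp5c1 (-0.36) and Atp5e (-0.41) were lower by similar log2 amounts.

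Atp5d, the δ subunit of the central stalk, had another pattern. Its level was 312, 221, 185, 195 and 183 CPM in Th1, 120.2, 124, 91.5 and 66.97 CPM in TfhA and 73.9, 85.2, 77.1, 108 and 105 CPM in Tfh5. Both Tfh groups lay below every Th1 library and overlapped with each other. The gene was 2.17-fold lower in TfhA than in Th1 (log2 fold change -1.12 ± 0.17 (SE), adjusted p = 7.98e-06) and did not pass the test between Tfh5 and TfhA (adjusted p = 0.407).

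In the membrane part and the peripheral stalk of ATP synthase most members were also lower in Tfh5. The c ring, the rotor through which protons pass, is encoded by 3 genes with the same mature product. Atp5g3 was at 388 ± 48.5 CPM in TfhA and 273 ± 28.4 CPM in Tfh5 (log2 fold change -0.51 ± 0.102 (SE), adjusted p = 0.000144), with no overlap. Atp5g1 was lower at 13.8 ± 1.77 CPM in Tfh5 against 20.2 ± 6.27 CPM (adjusted p = 0.00893), a call that was lost without TfhA replicate 1 (adjusted p = 0.0548) or TfhA replicate 2 (adjusted p = 0.0643). Atp5g2 had 1.08 ± 0.194 CPM in Th1 and 0.381 ± 0.225 CPM in Tfh5, and 87.4% of its 50-base windows occur in other annotated genes. In the peripheral stalk, which holds the head still, Atp5o (-0.58), Atp5pb (-0.51) and Atp5j (-0.41) were lower in Tfh5 than in TfhA on the log2 scale. Among the small membrane subunits, Atp5k (-0.696), Atp5md (-0.64) and Atp5j2 (-0.34) were lower, and Atp5mpl (-0.02) and Atp5l (0.59, at most 1.37 CPM in any library) were not called.

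Atp5h, a peripheral stalk subunit, was the ATP synthase member called higher in Tfh5 than in TfhA. It was at 84.9 ± 10.2 CPM in Th1, 106 ± 13.5 CPM in TfhA and 131 ± 19.03 CPM in Tfh5. The difference from TfhA (log2 fold change 0.298 ± 0.12 (SE), adjusted p = 0.0305) rested on libraries that overlapped, and leaving out any of TfhA replicates 1, 2 and 4 or Tfh5 replicates 1, 2 and 3 gave adjusted p values of 0.0575 to 0.0858. Copies elsewhere in the annotation held 47.9% of the 50-base windows of Atp5h.

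Complex III, which passes electrons from ubiquinol to cytochrome c, had 5 of 8 nuclear members lower and 1 higher in Tfh5 than in TfhA. Of all genes tested, 30.1% were lower and 27.4% higher in that comparison. The small subunit gene Uqcrq, whose product lies beside cytochrome b, was at 205, 184, 169.9, 166 and 203 CPM in Th1, 190.4, 238, 204 and 196 CPM in TfhA and 126, 105, 105, 113 and 117 CPM in Tfh5. The Tfh5 libraries lay below all others, and Th1 and TfhA overlapped. Uqcrq was 1.83-fold lower in Tfh5 than in TfhA (log2 fold change -0.87 ± 0.095 (SE), adjusted p = 2.47e-08). Uqcr10, another small subunit, was at 205, 250.5, 208 and 184 CPM in TfhA and 130.2, 116, 130.3, 113 and 135 CPM in Tfh5, again without overlap (log2 fold change -0.76 ± 0.096 (SE), adjusted p = 2.58e-07). Smaller decreases were called for Uqcrc1 and Uqcrc2, the core proteins (-0.38 and -0.21), and for Cyc1, cytochrome c1 (-0.32), on the log2 scale. Uqcrb, a subunit beside cytochrome b, was not called in any comparison, and 43.2% of its 50-base windows are shared with other genes.

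Uqcrh and Uqcrfs1 departed from the rest of complex III. Uqcrh, the hinge protein at the docking site of cytochrome c, was at 463, 514, 436 and 439 CPM in TfhA and 664, 608, 669, 536 and 503 CPM in Tfh5, higher in Tfh5 (log2 fold change 0.36 ± 0.097 (SE), adjusted p = 0.0024) with overlapping libraries. Uqcrfs1 encodes the Rieske iron-sulfur protein. It was at 331, 362, 355, 341 and 373 CPM in Th1, 232, 253, 205 and 243 CPM in TfhA and 241, 212, 234, 184 and 160.4 CPM in Tfh5, so that both Tfh groups lay below every Th1 library. It was 1.51-fold lower in TfhA than in Th1 (log2 fold change -0.59 ± 0.11 (SE), adjusted p = 6.79e-05) and was not called between Tfh5 and TfhA (adjusted p = 0.157).

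Complex IV, cytochrome c oxidase, had 8 of 14 nuclear members lower and 1 higher in Tfh5 than in TfhA, beside 30.1% and 27.4% of all genes tested. Cox5a, a subunit on the matrix side, was at 238, 212, 212, 206 and 227 CPM in Th1, 203, 219.6, 206 and 213 CPM in TfhA and 155, 138, 149, 150.1 and 128 CPM in Tfh5 (log2 fold change -0.55 ± 0.08 (SE), adjusted p = 4.57e-06). Tfh5 lay below both other groups, which overlapped. Cox6a1 (-0.49), Cox6c (-0.58), Cox7b (-0.497), Cox5b (-0.44) and Ndufa4 (-0.48), a protein first assigned to complex I and now placed in complex IV, were also lower on the log2 scale. Cox6b1 was lower as well (-0.26, adjusted p = 0.033), but leaving out any of 7 libraries ended that call, with the highest adjusted p at 0.164 without TfhA replicate 2. Cox4i1, with 513 ± 36.9, 414 ± 50.02 and 475 ± 28.8 CPM in Th1, TfhA and Tfh5 (SD), was not called between the Tfh groups (adjusted p = 0.0691). Cox8a, a small membrane subunit, was at 315 ± 24.6, 198 ± 31.5 and 170.2 ± 25.1 CPM in the same order, 1.59-fold lower in TfhA than in Th1 (log2 fold change -0.67 ± 0.11 (SE), adjusted p = 3.75e-05) with no overlap, and was not called between Tfh5 and TfhA (adjusted p = 0.101). Cox7c was not called in any comparison.

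Cox7a2l went the other way. It encodes a protein known for a role in joining complexes III and IV into supercomplexes. Whether the form of the protein in the mouse strain used has that role was not tested. Cox7a2l shares 19.8% of its 50-base windows with an annotated pseudogene. Its level was 133, 139.9, 142, 147 and 145 CPM in Th1, 121, 131, 144 and 120.2 CPM in TfhA and 223, 197, 203, 187 and 149.9 CPM in Tfh5, and every Tfh5 library lay above every other library. It was 1.49-fold higher in Tfh5 than in TfhA (log2 fold change 0.57 ± 0.101 (SE), adjusted p = 2.92e-05) and 1.36-fold higher than in Th1 (log2 fold change 0.44 ± 0.09 (SE), adjusted p = 0.000226). Its paralogues Cox7a1, the heart and muscle form, and Cox7a2, the widespread form, stayed under 8 CPM in every library and were not called in any comparison.

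Cox6b2, known as the testis isoform of Cox6b, had the largest fold difference of the members in both comparisons with Th1. It was at 14.03, 11.8, 10.8, 12.8 and 8.83 CPM in Th1, 2.95, 1.96, 4.01 and 3.82 CPM in TfhA and 2.19, 2.04, 0.566, 1.42 and 1.64 CPM in Tfh5. Th1 lay above both Tfh groups without overlap, and TfhA and Tfh5 overlapped. Cox6b2 was 3.69-fold lower in TfhA than in Th1 (log2 fold change -1.88 ± 0.26 (SE), adjusted p = 2.57e-06) and 7.38-fold lower in Tfh5 than in Th1 (log2 fold change -2.88 ± 0.26 (SE), adjusted p = 7.32e-10). It was 1.9996-fold lower in Tfh5 than in TfhA (log2 fold change -1 ± 0.301 (SE), adjusted p = 0.00635). The widespread form Cox6b1 was at 183 ± 24.9, 153 ± 19.7 and 127 ± 6.67 CPM in Th1, TfhA and Tfh5 (SD). Other tissue-restricted forms were below the level rule: Cox4i2, the lung form, had 38 counts over the Th1 libraries, 2 over TfhA and 1 over Tfh5, and Cox6a2, the muscle form, had 5, 17 and 4. Cox7b2, Cox8b and Cox8c had 0 counts.

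**Figure D3:**
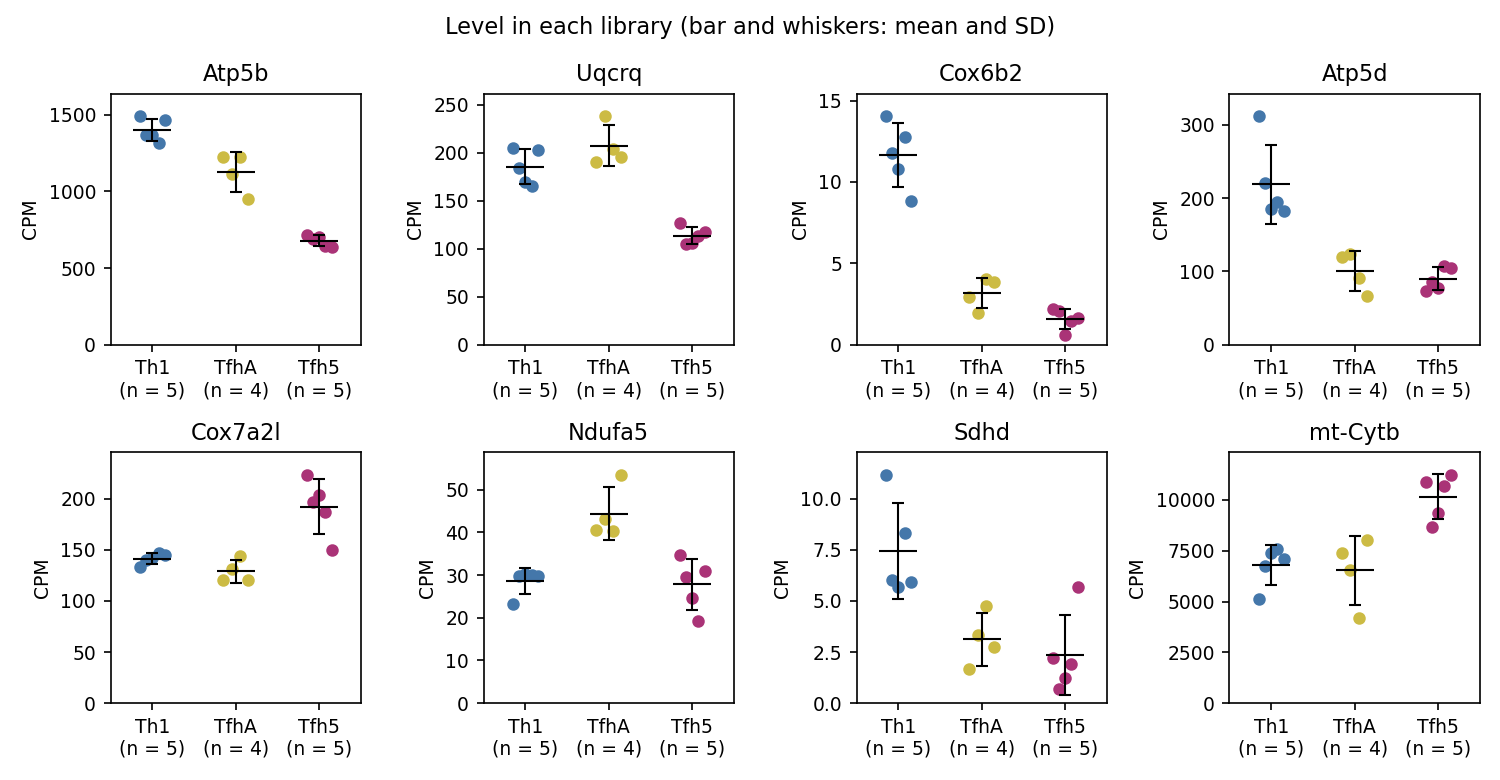
Level in CPM of 8 members in each library of Th1, TfhA and Tfh5. Points are libraries, horizontal lines are means and whiskers are 1 SD, and each panel starts at 0. Atp5b and Uqcrq are lower in Tfh5 than in both other groups, Atp5d, Cox6b2 and Sdhd are higher in Th1, Cox7a2l and mt-Cytb are higher in Tfh5, and Ndufa5 is higher in TfhA.

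In complex I, the entry point for electrons from NADH, 18 of 36 nuclear subunits were lower in Tfh5 than in TfhA, beside 30.1% of all genes tested. The core subunits carry the redox centres. Among the nuclear core genes, Ndufs8 (-0.45), Ndufs7 (-0.41) and Ndufv1 (-0.404) were lower on the log2 scale, while Ndufs1, Ndufs3 and Ndufv2 were not called. Ndufs1, which holds several iron-sulfur clusters, differed between TfhA and Th1, at 80.3 ± 7.64 against 60.1 ± 6.65 CPM (log2 fold change 0.42 ± 0.11 (SE), adjusted p = 0.00229).

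Of the 29 accessory subunits, which surround the core and are needed for assembly and stability, 15 were lower and 1 was higher in Tfh5 than in TfhA. The shares of all genes tested were 30.1% lower and 27.4% higher. Ndufa5, in the arm that projects into the matrix, was at 23.1, 29.8, 30.2, 30.03 and 29.9 CPM in Th1, 40.5, 43.3, 40.3 and 53.5 CPM in TfhA and 34.7, 29.6, 24.7, 19.3 and 31.01 CPM in Tfh5. TfhA stood above both other groups without overlap. It was 1.59-fold lower in Tfh5 than in TfhA (log2 fold change -0.67 ± 0.14 (SE), adjusted p = 0.000285) and 1.55-fold higher in TfhA than in Th1 (log2 fold change 0.63 ± 0.14 (SE), adjusted p = 0.000748). Ndufb2 and Ndufb6, of the membrane arm, were also highest in TfhA by the mean: Ndufb2 was at 31.1 ± 3.76, 47.7 ± 4.19 and 32.96 ± 6.47 CPM and Ndufb6 at 67.3 ± 4.58, 96.04 ± 5.19 and 68.3 ± 13.8 CPM in Th1, TfhA and Tfh5 (SD), each called higher in TfhA than in Th1 and lower in Tfh5 than in TfhA.

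Other accessory genes were highest in Th1 and lowest in Tfh5 by the mean. Ndufb8, of the membrane arm, was at 136, 112, 106, 102 and 115 CPM in Th1, 90.8, 124, 82.6 and 88.9 CPM in TfhA and 71.1, 57.01, 61.9, 65.8 and 65.8 CPM in Tfh5. Tfh5 lay below all other libraries, and it was 1.78-fold lower than Th1 (log2 fold change -0.83 ± 0.11 (SE), adjusted p = 3.28e-07). Ndufa7 (-0.82), Ndufa3 (-0.73) and Ndufv3 (-0.62) were also lower in Tfh5 than in Th1 on the log2 scale, with no overlap. For Ndufa3 the step from TfhA to Tfh5 (-0.28, adjusted p = 0.026) was lost without TfhA replicate 1 or 2 or Tfh5 replicate 2 or 4, with adjusted p values of 0.0567 to 0.171, and for Ndufa7 the same step (adjusted p = 0.0089) was lost without TfhA replicate 2 (adjusted p = 0.085).

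The other lower accessory subunits in Tfh5 than in TfhA were Ndufa9, Ndufb7, Ndufb9, Ndufb3, Ndufc1, Ndufc2, Ndufs6 and Ndufa2, with log2 fold changes from -0.601 for Ndufc1 to -0.26 for Ndufb9. Those not called were Ndufa1, Ndufa10, Ndufa11, Ndufa12, Ndufa13, Ndufa8, Ndufab1, Ndufb10, Ndufb11, Ndufb4, Ndufb5, Ndufs4 and Ndufs5. Ndufab1, the mitochondrial acyl carrier protein, had the lowest level per length in complex I, at 0.846 CPM per kilobase, and Ndufa2 the highest, at 290.1 CPM per kilobase (Ndufa3 was, at 411 per kilobase, with the length of the principal transcript). Ndufa6, a small protein of the LYR family that binds Ndufab1, was the accessory gene called higher (15.6 ± 3.53 against 9.96 ± 3.703 CPM, adjusted p = 0.0225), but its libraries overlapped, and the call was lost without Tfh5 replicate 3 (adjusted p = 0.0765), TfhA replicate 4 (0.0949) or TfhA replicate 5 (0.0698).

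The 8 complex I assembly factors, which build the complex but are not part of it, were divided. Ndufaf6 was at 7.98, 8.88, 7.79, 9.23 and 7.01 CPM in Th1, 11.1, 10.8, 12.1 and 14.9 CPM in TfhA and 7.998, 7.14, 3.68, 3.796 and 6.35 CPM in Tfh5. It was the member that passed 2-fold between Tfh5 and TfhA, 2.102-fold lower in Tfh5 with no overlap (log2 fold change -1.07 ± 0.21 (SE), adjusted p = 0.000113). Ndufaf7, a methyltransferase, and Ndufaf5, which hydroxylates Ndufs7, were lower in Tfh5 than in TfhA as well (-0.73 and -0.71 on the log2 scale), with no overlap. The decrease of Ndufaf1 (-0.34, adjusted p = 0.0236) was lost when any of Tfh5 replicates 3, 4 and 5 or TfhA replicates 4 and 5 was left out, with adjusted p values of 0.0574 to 0.1.

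Ndufaf3 and Ndufaf4, which bind each other during assembly of the ubiquinone module, were higher in Tfh5 than in Th1. Ndufaf4 was at 22.4, 31.1, 26.9, 30.4 and 29.2 CPM in Th1, 44.3, 51.9, 52.2 and 66.3 CPM in TfhA and 52.4, 41.6, 46.5, 41.9 and 41.7 CPM in Tfh5. Both Tfh groups lay above every Th1 library. Ndufaf4 was 1.91-fold higher in TfhA (log2 fold change 0.94 ± 0.12 (SE), adjusted p = 1.17e-06) and 1.601-fold higher in Tfh5 (log2 fold change 0.68 ± 0.12 (SE), adjusted p = 2.09e-05) than in Th1. Ndufaf3 was at 21.4 ± 1.36, 25.95 ± 1.31 and 34.4 ± 6.75 CPM in Th1, TfhA and Tfh5 (SD), called higher in Tfh5 than in TfhA (adjusted p = 0.0119) and than in Th1 (adjusted p = 3.71e-05). Ndufaf2 and Ndufaf8 were not called in any comparison.

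Complex II, succinate dehydrogenase, is the member of the chain with no mitochondrially encoded subunit and also a TCA cycle enzyme. Sdha, its flavoprotein, was at 161, 159.6, 183, 170.2 and 198 CPM in Th1, 231, 201, 266 and 247 CPM in TfhA and 281, 219.9, 215, 206 and 204 CPM in Tfh5. Both Tfh groups lay above every Th1 library, and it was 1.35-fold higher in TfhA than in Th1 (log2 fold change 0.44 ± 0.11 (SE), adjusted p = 0.00148). Sdhb, the iron-sulfur subunit, was at 149.97 ± 9.92, 189 ± 18.3 and 153 ± 10.6 CPM in Th1, TfhA and Tfh5 (SD), higher in TfhA than in Th1 (adjusted p = 0.00399) and lower in Tfh5 than in TfhA (adjusted p = 0.0062), and the latter call was lost with a transcript length correction (adjusted p = 0.216).

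The membrane anchors of complex II were lower in Tfh5 than in Th1. Sdhc was at 190.5 ± 17.9 CPM in Th1 and 155 ± 16.7 CPM in Tfh5 (adjusted p = 0.00994). Sdhd was at 11.2, 6.03, 5.67, 8.32 and 5.94 CPM in Th1, 1.67, 3.33, 4.76 and 2.76 CPM in TfhA and 2.19, 0.714, 1.23, 1.898 and 5.68 CPM in Tfh5. Tfh5 replicate 5 stood far above the other 4 Tfh5 libraries. Sdhd was 3.07-fold lower in Tfh5 than in Th1 (log2 fold change -1.62 ± 0.37 (SE), adjusted p = 0.00045), and between Tfh5 and TfhA it was called only without that library (log2 fold change -1.02, adjusted p = 0.0226). Cycs, somatic cytochrome c, the carrier between complexes III and IV, was at 1.87, 2.08, 1.44, 1.11 and 2.51 CPM in Th1, 3.86, 3.24, 5.41 and 3.82 CPM in TfhA and 3.05, 2.86, 2.17, 2.18 and 3.44 CPM in Tfh5. It was 2.25-fold higher in TfhA than in Th1 with no overlap (log2 fold change 1.17 ± 0.29 (SE), adjusted p = 0.00194), and 28.5% of its 50-base windows occur in other annotated genes.

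The mitochondrial genome encodes 7 subunits of complex I, 1 of complex III, 3 of complex IV and 2 of complex V. The 8 genes that passed the level rule were mt-Nd1 to mt-Nd6 without mt-Nd4l, mt-Cytb and mt-Co1. Of these, mt-Cytb, mt-Nd4, mt-Nd5, mt-Nd6 and mt-Co1 were higher in Tfh5 than in TfhA. mt-Cytb (chrM:14145-15288), cytochrome b of complex III, was at 5104, 6746, 7383, 7577 and 7074 CPM in Th1, 7364, 6569.8, 4168 and 8020.3 CPM in TfhA and 10866, 8678, 9354, 10683 and 11233 CPM in Tfh5. Every Tfh5 library lay above every other library, and the difference from Th1 was 1.4996-fold (log2 fold change 0.58 ± 0.14 (SE), adjusted p = 0.000688).

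mt-Co1 (chrM:5328-6872), the catalytic subunit of complex IV, was the most abundant member per length, at 17590 CPM per kilobase over all libraries. Its level was 19078, 26891, 28487, 30640.2 and 26241 CPM in Th1, 26673, 21767, 14321 and 26728 CPM in TfhA and 31510.2, 31386, 33372, 32580.5 and 30792 CPM in Tfh5, and the Tfh5 libraries were the highest of all and close to each other. It was 1.43-fold higher in Tfh5 than in TfhA (log2 fold change 0.51 ± 0.15 (SE), adjusted p = 0.00492) and did not pass the test against Th1 (adjusted p = 0.0806). mt-Nd4 was higher in Tfh5 than in TfhA with no overlap (0.65 ± 0.16 (SE) on the log2 scale), and mt-Nd5 (0.57 ± 0.195 (SE)) and mt-Nd6 (0.55 ± 0.13 (SE)) with overlap. Without TfhA replicate 4, the library with the lowest mitochondrial sum (31369 CPM), mt-Nd5 was at 0.37 with adjusted p = 0.0717. mt-Nd1 (0.28 ± 0.15 (SE)) and mt-Nd2 (0.29 ± 0.17 (SE)) were not called, and both were called without TfhA replicate 5 (adjusted p = 0.0238 and 0.0214).

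Against Th1, 6 of the 8 mitochondrial members were called higher in Tfh5, beside 31.5% of all genes tested. Among the 6 was mt-Nd3 (0.696 on the log2 scale), whose counts are not read as its transcript level for the reason given below. The other 5 had log2 fold changes from 0.38 for mt-Nd6 to 0.58 for mt-Cytb. With a correction for GC content, mt-Nd1, mt-Nd3, mt-Nd4, mt-Nd5 and mt-Nd6 lost that call, with adjusted p values of 0.0579 to 0.898. The call of mt-Nd5 was also lost without Th1 replicate 1 (log2 fold change 0.40, adjusted p = 0.0545). mt-Nd3 was at 3.804, 6.31, 5.44, 6.45 and 4.49 CPM in Th1, 8.03, 6.996, 8.99 and 11.7 CPM in TfhA and 7.52, 7.14, 7.93, 10.1 and 10.2 CPM in Tfh5. That was a small part of the level of mt-Nd4. The protein genes on either side of mt-Nd3, mt-Co3 and mt-Nd4l, had almost no counts, and nearly all of the mt-Nd3 sequence is shared with a nuclear copy. mt-Nd6 is the gene transcribed from the opposite strand (chrM:13552-14070, minus strand) and meets the end of mt-Nd5 (chrM:11742-13565). The sources used here do not give the strand setting of the counting, so reads from the opposite strand cannot be told apart from those of mt-Nd6.

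The remaining 5 mitochondrial genes had almost no counts. Over all 14 libraries, mt-Co3 had 30 counts, mt-Co2 had 7, mt-Nd4l and mt-Atp6 had 3 each and mt-Atp8 had 0, while mt-Nd3 reached at most 11.7 CPM of the plain library total. Apart from mt-Atp8, these genes have near-identical annotated copies on nuclear chromosome 1. In the annotated transcripts (GENCODE M21, the mm10 build), the copies of mt-Nd3 (Gm28438), mt-Nd4l (Gm10222), mt-Co3 (Gm28437), mt-Atp6 (Gm10925) and mt-Co2 (Gm28661), with those of part of mt-Nd4 and of mt-Co1, lie within chr1:24611535-24616197. Of the 50-base windows of the mitochondrial gene, 98.0% of mt-Nd3, 98.8% of mt-Nd4l, 99.5% of mt-Atp6, 99.9% of mt-Co3 and 100% of mt-Co2 occurred in a copy. The same held for 62.2% of mt-Nd4 and 51.1% of mt-Co1, for 7.61% and 8.19% of mt-Nd5 and mt-Nd2, and for none of mt-Nd1, mt-Nd6 and mt-Cytb. Stretches of a gene and its copy are shown from GENCODE transcripts in the direction of the gene, because they show how little separates the sequences. mt-Nd3 and its copy differ at 1 of 345 compared bases, T3C, the mitochondrial base first and the position counted from 1 at the first base of the gene, with that base in capitals. The stretches of mt-Nd4l (bases 118 to 177) and mt-Co3 (bases 362 to 421) do not differ from their copies.
mt-Nd3: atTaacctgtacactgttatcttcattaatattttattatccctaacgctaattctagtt
Gm28438: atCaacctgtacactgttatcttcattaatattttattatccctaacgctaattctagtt
mt-Nd4l and Gm10222: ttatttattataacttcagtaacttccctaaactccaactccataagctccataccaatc
mt-Co3 and Gm28437: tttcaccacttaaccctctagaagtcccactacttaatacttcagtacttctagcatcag

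The sources used here do not say how the counting treated reads that match several places, and whether such reads were left out was not tested. No transcript level is read here from the counts of mt-Nd3, mt-Nd4l, mt-Co2, mt-Co3 and mt-Atp6, and whether mt-Nd4 and mt-Co1 were counted over their whole length was not tested. mt-Atp8 shared no window with an annotated gene, but only annotated transcripts were searched, not the whole genome. It begins between mt-Co2 and mt-Atp6 on the mitochondrial genome, and the copies of both lie on chromosome 1. Whether mt-Atp8 also has a copy there was not tested.

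**Figure D4:**
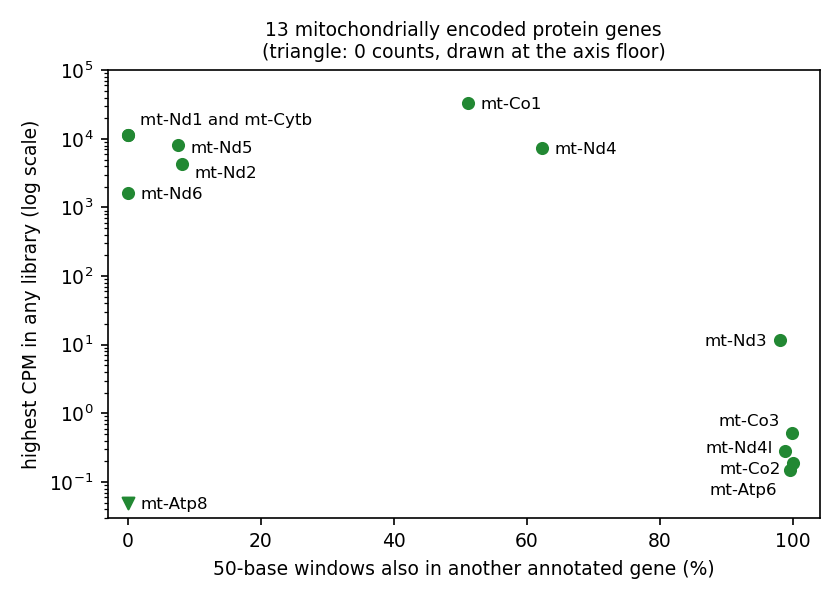
The 13 protein genes of the mitochondrial genome by the share of their 50-base windows that also occur in another annotated gene (x axis, percent) and the highest level in any library (y axis, CPM of the plain library total, log scale). The triangle marks mt-Atp8, with 0 counts. Genes with 98.0% or more of windows shared reach at most 11.7, and genes with 8.19% or less lie at 1637 or more, apart from mt-Atp8.

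Shared sequence also touched some nuclear members. Of the 88, 50 shared no 50-base window with another gene and 12 shared 20% or more. Among these, Atp5g2 (87.4%), Atp5l (68.5%) and Cox7c (53.0%) had at most 2.38 CPM of the plain library total in any library. The highest levels of the others ran from 5.68 CPM for Cycs (28.5%) to 214 CPM for Atp5pb (23.2%), with Atp5h (47.9%) at 146 CPM and Uqcrb (43.2%) at 94.2 CPM. Among the 61 that shared under 5%, 36 were lower and 3 higher in Tfh5 than in TfhA, beside 30.1% and 27.4% of all genes tested. Their median log2 fold change was -0.32, close to that of all 88. Low levels also occurred without shared windows, as for Cox7a2, Cox7a1, Ndufa8, Sdhd and Ndufaf8. Rows annotated as pseudogenes were left out of the members. Of these, Uqcrh-ps1 was at 20.9 ± 3.85, 23.5 ± 3.63 and 30.2 ± 7.72 CPM and Atp5c1-ps at 48.9 ± 4.26, 49.5 ± 5.71 and 35.8 ± 6.42 CPM in Th1, TfhA and Tfh5 (SD), the first highest and the second lowest in Tfh5 by the mean, as were Uqcrh and Atp5c1 themselves.

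The promoters of the nuclear members were searched for the binding motifs of factors known to act on respiratory chain genes, in the 250 bases before and 50 bases after the transcription start (RefSeq, GRCm38.p6), on both strands. Promoters were found for 74 of the 88 members. The core GCATGCG of the NRF1 motif was in 13 of them (17.6%), against 7.36% of the 9911 tested genes with a promoter. The core AAGATGG of the YY1 motif was in 12 (16.2%, against 8.53%), the ETS motif CCGGAAG bound by GABPA in 18 (24.3%, against 20.6%) and the E-box CACGTG in 6 (8.11%, against 11.9%). The ETS and YY1 letters can share 3 bases. Among the members with a promoter, the NRF1 core was in 6 of the 40 lower in Tfh5 than in TfhA, in 6 of the 29 not called and in 1 of the 5 higher, and the YY1 core in 9, 3 and 0. These matches are descriptions of letters and say nothing of binding.

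The 80 bases before the start are given for the 3 members with the lowest and the 3 with the highest log2 fold change between Tfh5 and TfhA among called members at 50 CPM or more with a single promoter entry, so that both directions can be seen side by side. Capitals mark a match to a motif, on either strand. They lie at chr11:4704345-4704424 (Uqcr10, minus strand), chr10:128083227-128083306 (Atp5b, plus strand), chr5:108434400-108434479 (Atp5k, minus strand), chr17:83514334-83514413 (Cox7a2l, minus strand), chr4:116075071-116075150 (Uqcrh, minus strand) and chr11:115419920-115419999 (Atp5h, minus strand). The first 3 were lower and the last 3 higher in Tfh5. The NRF1 core stands on both strands in that of Atp5k and the ETS motif in those of Uqcrh and Atp5h, while those of Uqcr10, Atp5b and Cox7a2l held none of the 4 motifs.
Uqcr10: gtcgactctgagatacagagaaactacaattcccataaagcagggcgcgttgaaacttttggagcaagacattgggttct
Atp5b: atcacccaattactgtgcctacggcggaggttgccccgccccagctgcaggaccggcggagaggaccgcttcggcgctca
Atp5k: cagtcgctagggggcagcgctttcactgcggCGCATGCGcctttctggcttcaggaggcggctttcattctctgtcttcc
Cox7a2l: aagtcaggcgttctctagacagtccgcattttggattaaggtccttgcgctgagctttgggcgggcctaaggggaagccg
Uqcrh: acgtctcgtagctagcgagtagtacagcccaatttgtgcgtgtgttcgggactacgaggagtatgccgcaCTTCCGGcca
Atp5h: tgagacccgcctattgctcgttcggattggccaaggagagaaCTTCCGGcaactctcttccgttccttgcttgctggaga

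Genes that feed, assemble and maintain the chain were examined as 7 lists, chosen with earlier results of these data known. Among 17 TCA cycle genes, 8 were lower (47.1%) and 2 higher (11.8%) in Tfh5 than in TfhA (median log2 fold change -0.10), beside 30.1% and 27.4% of all genes tested. Fh1, fumarase, which follows complex II in the cycle, was at 73.4 ± 6.19, 107 ± 4.14 and 40.6 ± 4.297 CPM in Th1, TfhA and Tfh5 (SD) and was 2.64-fold lower in Tfh5 than in TfhA (log2 fold change -1.403 ± 0.097 (SE), adjusted p = 6.64e-12).

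All 6 tested genes of the other routes by which electrons reach ubiquinone were called between Tfh5 and TfhA, 4 lower and 2 higher. Of all genes tested, 57.5% were called in that comparison, 30.1% lower and 27.4% higher. Gpd2, the mitochondrial glycerol phosphate dehydrogenase, was at 195 ± 12.1, 85.4 ± 13.8 and 32.5 ± 5.18 CPM in Th1, TfhA and Tfh5 (SD), 6.001-fold lower in Tfh5 than in Th1 (adjusted p = 4.83e-16). Etfb, a subunit of the electron transfer flavoprotein of fatty acid oxidation, was at 47.2 ± 8.99, 56.3 ± 9.97 and 19.7 ± 0.152 CPM, 2.86-fold lower in Tfh5 than in TfhA (adjusted p = 5.33e-10). Sqor, which oxidises sulfide, was at 7.63 ± 1.99, 8.31 ± 0.329 and 31.3 ± 4.54 CPM and 3.76-fold higher in Tfh5 than in TfhA (adjusted p = 6.97e-10). Each of these contrasts was without overlap between libraries.

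Of 37 tested assembly factors outside the naming rule, 10 were lower (27.0%) and 7 higher (18.9%) in Tfh5 than in TfhA, both shares under those of all genes tested. Between TfhA and Th1, 12 were higher (32.4%) and 2 lower (5.41%) in TfhA, beside 23.2% and 21.6% of all genes tested. Sco1, which carries copper to mt-Co2 protein in complex IV, was at 124 ± 6.43, 65.5 ± 6.79 and 19.1 ± 1.83 CPM in Th1, TfhA and Tfh5 (SD), 3.43-fold lower in Tfh5 than in TfhA (log2 fold change -1.78 ± 0.101 (SE), adjusted p = 1.61e-13) and 1.899-fold lower in TfhA than in Th1 (log2 fold change -0.93 ± 0.097 (SE), adjusted p = 2.98e-08). Acad9, needed for complex I assembly, had the reverse order, at 12.5 ± 1.22, 19.8 ± 2.62 and 34.2 ± 2.63 CPM (2.73-fold higher in Tfh5 than in Th1, adjusted p = 8.96e-11). Of 13 genes of coenzyme Q synthesis, 5 were lower (38.5%) and 2 higher (15.4%) in Tfh5 than in TfhA, beside 30.1% and 27.4% of all genes tested. Pdss1, which makes the isoprenoid tail, was 2.96-fold lower in Tfh5 than in TfhA (adjusted p = 2.83e-08).

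Of 26 genes that keep and express mitochondrial DNA, 10 were lower (38.5%) and 2 higher (7.69%) in Tfh5 than in TfhA, beside 30.1% and 27.4% of all genes tested. In TfhA against Th1, 9 were higher (34.6%) and 1 lower (3.85%), beside 23.2% and 21.6% of all genes tested. Lrpprc, which stabilises mitochondrial mRNAs, was at 65.97 ± 4.703, 97.4 ± 19.4 and 58.3 ± 7.72 CPM in Th1, TfhA and Tfh5 (SD), 1.67-fold lower in Tfh5 than in TfhA (log2 fold change -0.74 ± 0.12 (SE), adjusted p = 7.85e-06), and Tfb1m, a mitochondrial rRNA methyltransferase, was at 31.1 ± 1.56, 38.1 ± 7.14 and 21.01 ± 3.11 CPM in the same order (1.81-fold lower, adjusted p = 5.32e-06). Of 9 tested regulators of mitochondrial biogenesis, 3 were lower (33.3%, near the 30.1% of all genes tested) and 1 higher (11.1%) in Tfh5 than in TfhA. The higher one was Nfe2l2, a regulator of the oxidative stress response, at 183 ± 9.44, 117 ± 12.9 and 144 ± 11.7 CPM in Th1, TfhA and Tfh5 (SD; log2 fold change 0.29 ± 0.09 (SE), adjusted p = 0.0091), with overlapping libraries. Of the lower ones, the coactivator gene Pprc1 was at 102 ± 13.6, 101 ± 15.2 and 57.3 ± 6.55 CPM (log2 fold change -0.81 ± 0.12 (SE), adjusted p = 1.71e-06) and Nrf1, whose product binds the NRF1 motif, at 42.9 ± 4.28, 52.8 ± 4.96 and 35.6 ± 2.31 CPM (log2 fold change -0.57 ± 0.11 (SE), adjusted p = 5.54e-05). Of 7 tested carriers, 2 were lower in Tfh5 than in TfhA (28.6%, near the 30.1% of all genes tested). Vdac1, the outer membrane channel, fell through the 3 groups, at 416 ± 16.3, 298 ± 15.1 and 175 ± 18.4 CPM in Th1, TfhA and Tfh5 (SD; log2 fold change -0.77 ± 0.09 (SE), adjusted p = 4.88e-08 for Tfh5 against TfhA).

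**Figure D5:**
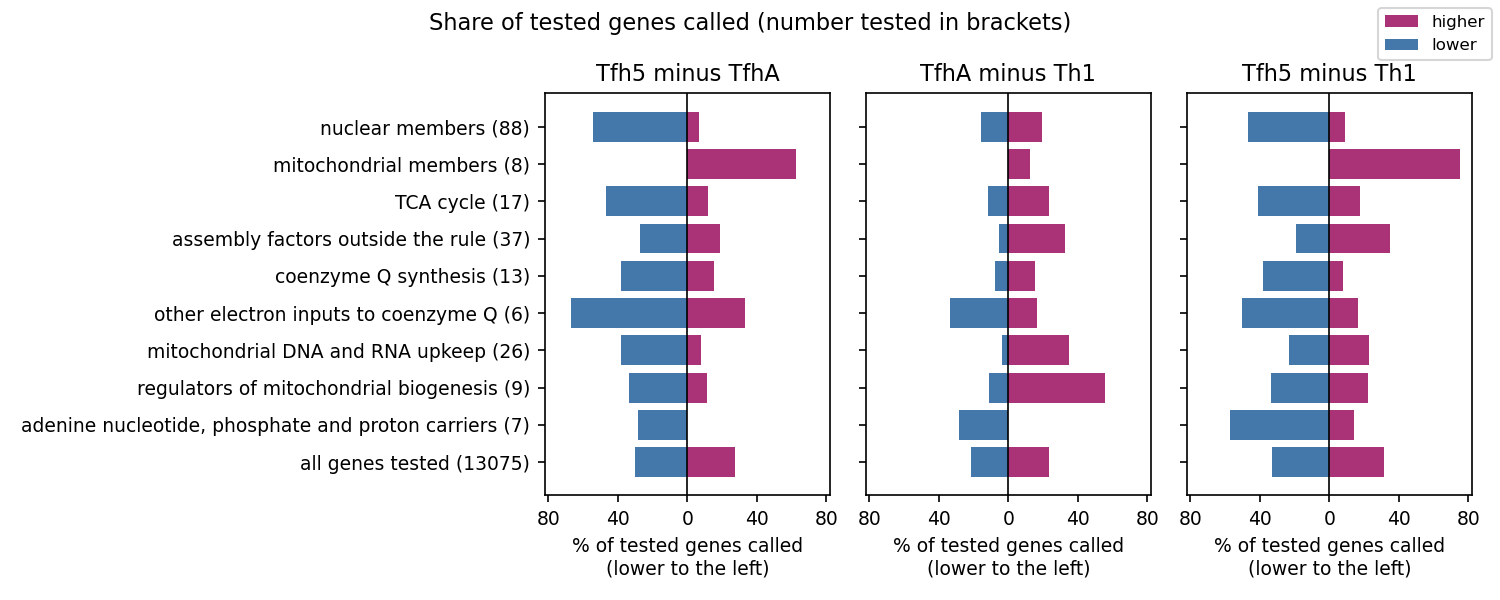
Share of tested genes called lower (blue, to the left) and higher (red, to the right) in each comparison, in percent, for the nuclear and mitochondrial members, the 7 related lists and all genes tested, with the number tested in brackets. In Tfh5 minus TfhA, 48 of 88 nuclear members extend to the left and 5 of 8 mitochondrial members to the right, beside 30.1% lower and 27.4% higher of all genes.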

How the data were processed

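Bulk mRNA of 14 libraries was measured with the Lexogen SENSE kit from 100 ng of RNA, per the labels. The deposited values are raw counts per Entrez gene, made with STAR 2.7.2b and featureCounts 1.6.4 on mm10, per the submitters' processing notes. The strand, annotation and multi-mapping settings are not stated there or in the labels. Groups come from the sample titles, and 0 columns belonged to other samples.

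Counts were analysed in R 4.3.3 with edgeR 4.0.16 (filterByExpr, TMM scaling, quasi-likelihood test, two-sided, 1 fit of 3 group means). This left 13075 tested genes, and p-values were adjusted over all of them by Benjamini and Hochberg. The common biological coefficient of variation was 14.2%. CPM values are scaled by TMM unless a library total is named, and SE is the standard error of the log2 fold change. Calls need an adjusted p under 0.05. Level per length divides CPM by the merged exon length in kilobases. Alternatives used DESeq2 1.42.0 (size factors, Wald test), library totals, scaling without the mitochondrial genome, no filter, only the groups compared, GC and length corrections, a replicate block, and each library left out in turn.

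Members and lists were chosen with earlier results of these data known. Of 130 RefSeq symbols that met the naming rule, 96 were kept, 5 were pseudogenes and 14 were under 1 CPM in all libraries. The other 15 had no row in the count table, among them the complex I gene Ndufb1. Of 124 list names, 123 were found. Named genes are the mitochondrial genes, Sdha to Sdhd, Cyc1 and Cycs; up to 3 called members per direction, class and comparison with the largest change at 5 CPM or more; the isoform sets; the highest and lowest per length in each class; and up to 2 called genes per list and comparison. Other members are named to account for them, and some results are not reported here.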

Additional observations from a re-analysis of the deposited data

Results flagged for a closer look

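In 198 groups of 4 or 5 values (each named member, the nuclear and mitochondrial sums and their ratio, in each condition), 17 had a library far from the others by Dixon's test, and chance flags about 1 in 20 groups. Th1 replicate 1 gave 11 of the 17. It was the lowest Th1 library for mt-Nd1 (5480 CPM, others from 7293), mt-Nd2 (1960 CPM, others from 2794), mt-Nd4 (2970 CPM, others from 4373) and Ndufa5 (23.1 CPM, others from 29.8). It was the highest Th1 library for Ndufa6 (23.9 CPM, others up to 13.6), Uqcrc1 (160 CPM, others up to 114), Ndufa3 (322 CPM), Cox8a (358 CPM), Atp5pb (215 CPM), Cox6b1 (226 CPM) and Atp5g3 (434 CPM).

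TfhA replicate 5 was the lowest of its group for Cyc1 (117 CPM, others from 147), Uqcrc1 (89.6 CPM, others from 117) and Cox6a1 (358 CPM, others from 387). TfhA replicate 2 was the highest for Ndufaf3 (27.9 CPM, others up to 25.5). In Tfh5, replicate 1 was the highest for Sdha (281 CPM, others up to 219.9) and replicate 2 the lowest for Ndufa7 (83.6 CPM, others from 94.7).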

How the results depend on the processing

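Leaving out 1 library at a time moved the members called in Tfh5 against TfhA between 8 and 12 higher and 42 and 51 lower, in TfhA against Th1 between 16 and 20 higher and 11 and 15 lower, and in Tfh5 against Th1 between 13 and 16 higher and 39 and 45 lower. With a transcript length correction, 17 members in place of 11 were higher in Tfh5 than in TfhA and 23 in place of 14 in Tfh5 than in Th1; the cause was not tested. The other alternatives kept every count within 1.5 times. DESeq2's Wald test called 12 higher and 48 lower in Tfh5 against TfhA. Across alternatives the nuclear median log2 fold change was -0.36 to -0.21 for Tfh5 against TfhA, -0.34 to -0.17 for Tfh5 against Th1 and -0.06 to 0.09 for TfhA against Th1, and the mitochondrial medians were 0.36 to 0.62, 0.22 to 0.64 and -0.27 to 0.13. Of 4701 values of named members under alternatives, 4496 kept the call, 106 lost the call and 95 gained it. In the other 4 the sign differed and only 1 of the 2 settings gave a call. The 4496 include 80 values not called under either setting whose sign differed. Those 4 values were all TfhA against Th1. Cyc1 was called at 0.26 with a GC correction and at 0.26 with the replicate block and GC correction, against -0.05, not called, in the main fit. Cox6a1 was at 0.031 and 0.055 under the same settings, not called, against -0.29, called, in the main fit. The cause was not tested.

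Replicate numbers have no stated meaning. Deviations of same-numbered libraries correlated at -0.05 to 0.16 (13 pairs, median 0.03), and 5 of 14 libraries correlated best with their own number. With the replicate number as a block, 10 members were higher and 46 lower in Tfh5 against TfhA, 17 and 12 in TfhA against Th1, and 14 and 40 in Tfh5 against Th1. Members under 10 CPM (14 of 96) rest on few reads, and shared sequence limits the members named with it. Level per length of Ndufab1, Uqcrh, Uqcrc1, Cox7c, Atp5b and Atp5l moved by more than the spread between libraries with another transcript length, the principal transcript being a choice added after seeing the data, and with that length Ndufa3 in place of Ndufa2 was the highest of complex I.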
